A study of Mus musculus with 27 samples.

Results

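The D cyclins and their G1 partners were followed here as 10 genes: Ccnd1, Ccnd2, Ccnd3, Cdk4, Cdk6, Cdkn1a, Cdkn1b, Cdkn1c, Rb1 and Rbl1. The set was chosen by function and in part selected on a measured value, the high Ccnd2 level in the axon region of control embryos. All 10 were found among the 55487 genes of the count table, and all 10 passed the filter for low expression (over 10 counts in 3 libraries or more), as did 16330 genes in all. The libraries were made from the optic stalk, the tissue that links the eye to the brain and later becomes the optic nerve, of mouse embryos at embryonic day 14. Laser capture of stained cryosections (the Geo-seq method) took a dorsal region, a ventral region and a region of retinal ganglion cell axons from 4 control and 5 mutant embryos, which gave 27 libraries in 6 groups.

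Mutants (Smarcc1-DCT-cKO) carried Smarcc1 (Baf155) alleles flanked by loxP sites and the Dct-Cre transgene with the Z/EG Cre reporter, on a C57Bl6/J background, and controls were littermates without Dct-Cre. Smarcc1 encodes BAF155, a core subunit of the BAF chromatin remodelling complexes. Dct-Cre follows the promoter of a pigment cell gene, and by the study's reporter it acts in the retinal pigment epithelium and also in the optic stalk lineage by this stage. Blood, vessel and mesenchymal cells, which have another origin, are not its targets. The targeted gene itself averaged 144.5 ± 97.92 CPM (counts-per-million, ± SD) over the 4 control libraries of the dorsal region against 54.49 ± 44.94 over its 5 mutant libraries, which overlapped. It averaged 129.8 ± 56.89 against 33.46 ± 19.59 CPM ventrally and 124.2 ± 88.65 against 18.32 ± 18.18 in axons, with no overlap in either. Libraries held 10899418 to 33980417 counts, so that 3 counts equalled 0.0883 to 0.275 CPM. Libraries came in 2 batches named in the labels, A with 1 control and 3 mutant embryos and B with 3 and 2.

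D cyclins are the growth factor sensors of the cell cycle: they are made in response to mitogens, bind the kinases CDK4 and CDK6, and activate them. The active kinases phosphorylate the retinoblastoma protein (Rb1) and its relative p107 (Rbl1), which then release E2F transcription factors and let the cell enter S phase. The proteins p21 (Cdkn1a), p27 (Cdkn1b) and p57 (Cdkn1c) hold cyclin-dependent kinases in check and are known for their part in cell cycle exit. In the developing mouse eye cyclin D1 is the main D cyclin of retinal progenitors, while cyclin D2 is prominent in progenitors of the brain.

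On the mm10 (GRCm38) build, all 10 are protein-coding genes. The D cyclin genes lie on chromosome 7 from 144929931 to 144939925, minus strand (Ccnd1, ENSMUSG00000070348.5), on chromosome 6 from 127125162 to 127152193, minus strand (Ccnd2, ENSMUSG00000000184.12), and on chromosome 17 from 47505051 to 47599691, plus strand (Ccnd3, ENSMUSG00000034165.16). Cdk4 (ENSMUSG00000006728.12) lies on chromosome 10 from 127063534 to 127067920 and Cdk6 (ENSMUSG00000040274.11) on chromosome 5 from 3341485 to 3531008, both on the plus strand. The inhibitor genes are on chromosome 17 from 29090976 to 29100727, plus strand (Cdkn1a, ENSMUSG00000023067.14), chromosome 6 from 134920401 to 134925513, plus strand (Cdkn1b, ENSMUSG00000003031.14), and chromosome 7 from 143458339 to 143461050, minus strand (Cdkn1c, ENSMUSG00000037664.13). Rb1 (ENSMUSG00000022105.6) is on chromosome 14 from 73183673 to 73325822 and Rbl1 (ENSMUSG00000027641.13) on chromosome 2 from 157145893 to 157204534, both on the minus strand. Other genes share part of the exonic bases of 8 of the 10, most in Cdkn1c (30.7%), Ccnd1 (23.4%, with LTO1) and Cdk4 (19.7%, with Tspan31). The strand setting of the counting was not given in the sources used here, so reads over shared bases cannot be assigned by strand. The genes that share 7.86% of the exonic bases of Ccnd2 were low beside it. For 9330179D12Rik the means were 5.775 CPM in dorsal and 7.441 CPM in ventral mutants, against 0 and 0.7455 CPM in the matching controls. It reached at most 26.15 CPM in any library, and Gm43126 had no count. The neighbour that overlaps Cdkn1c, Gm44732, had no count either. With the strand setting unknown, the lack of counts in a neighbour does not show that no reads fell on the shared bases. Neighbours of Ccnd1, Ccnd3, Cdk4 and Rb1 were expressed. LTO1 reached 113.6 CPM among dorsal mutants, and Tspan31 averaged 90.87 CPM in dorsal controls and 205.8 CPM in dorsal mutants. Bysl, which overlaps Ccnd3, had group means of 16.76 to 84.99 CPM. Rb1 shares 14.9% of its exonic bases with Lpar6 and Rcbtb2, and Rcbtb2 had group means of 52.98 to 143.5 CPM. The part of these neighbours in the counts of the members they overlap was not tested.

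Per kb of exonic length, the scale on which levels of different genes can be compared, Cdk4 was the highest of the 10 at a mean of 391.2 CPM per kb over the 27 libraries. It was followed by Ccnd2 at 128.4, Ccnd1 at 69.22 and Cdkn1c at 57.42 CPM per kb. The other 6 lay between 3.943 (Rb1) and 9.396 CPM per kb (Ccnd3). Ccnd1, Ccnd2, Ccnd3, Cdk4, Cdkn1b and Cdkn1c had counts in all 27 libraries, Cdk6 in 26, Rbl1 in 23, Rb1 in 21 and Cdkn1a in 20.

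**Figure D1:**
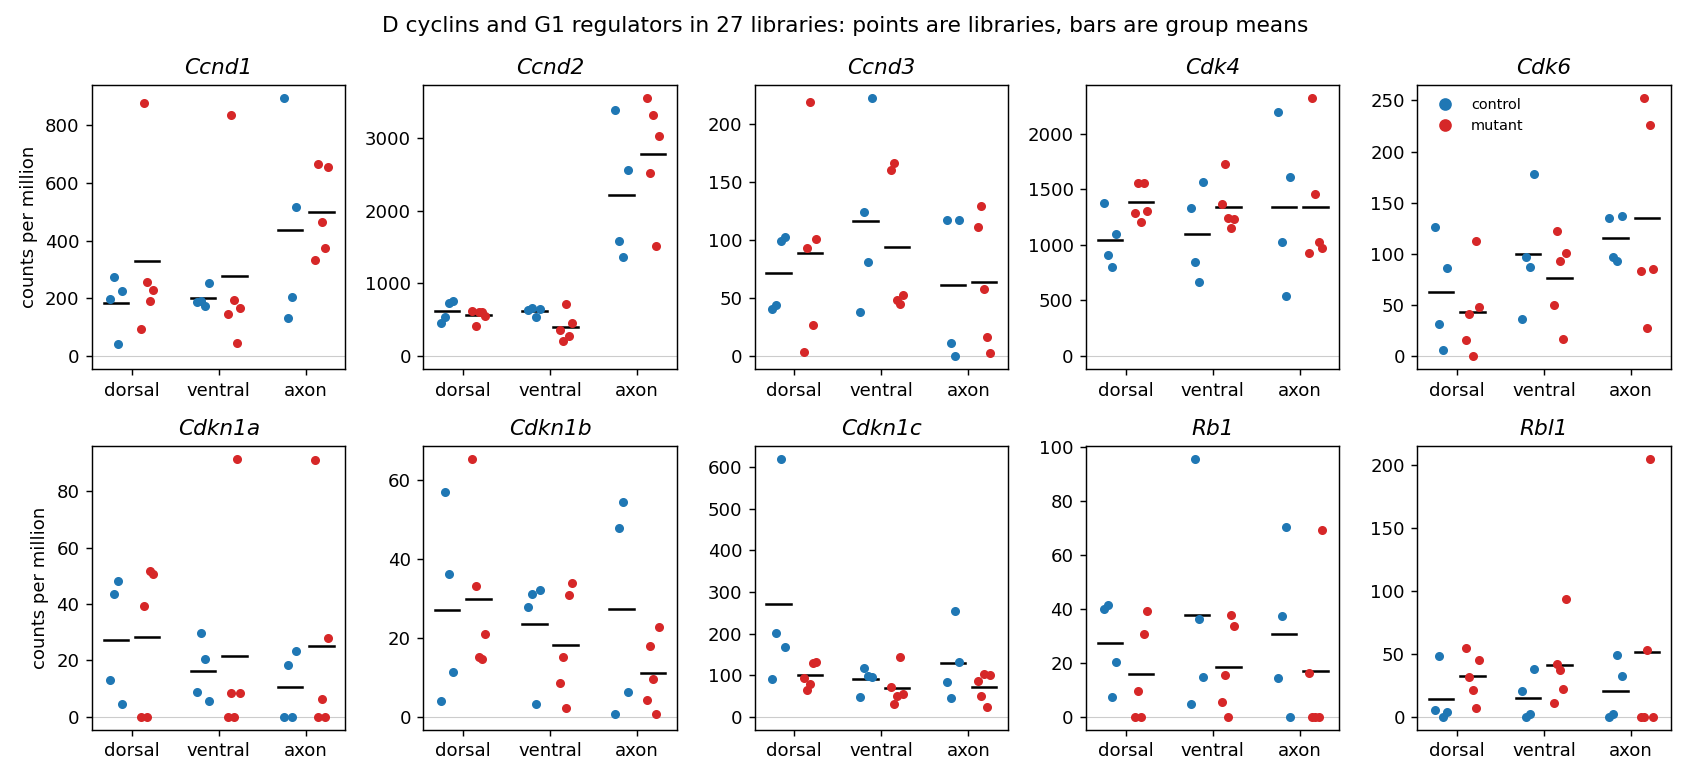
Level of each of the 10 genes in counts-per-million (CPM, linear axis) in the dorsal, ventral and axon regions of control (blue) and mutant (red) embryos, with 1 point per library and a black bar at the group mean. Ccnd2 in the axon region stands above every dorsal and ventral library in both genotypes, while the other 9 genes overlap between regions within a genotype and between genotypes within a region.

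Ccnd2, which encodes cyclin D2, was higher in the axon region than in the other 2 regions, in control and in mutant embryos alike. In axon controls it was at 3387, 1586, 1369 and 2563 CPM in embryos 1 to 4, with a mean of 2226 ± 931.8 (SD, n = 4). In axon mutants it was at 3560, 2523, 3317, 1521 and 3027 CPM in embryos 1 to 5, with a mean of 2789 ± 807.6 (SD, n = 5). The lowest of the 9 axon libraries was axon control 3 at 1369 CPM. In bulk tissue like this, a difference in the number of cells of a type and a difference in RNA per cell cannot be told apart.

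Dorsal controls held 451.9, 537.0, 733.2 and 762.7 CPM of Ccnd2 (mean 621.2 ± 150.9 SD, n = 4) and dorsal mutants 617.6, 413.7, 613.5, 606.0 and 548.9 CPM (mean 559.9 ± 86.32 SD, n = 5). Ventral controls held 632.3, 656.4, 543.5 and 651.5 CPM (mean 620.9 ± 52.67 SD, n = 4). Ventral mutants held 352.9, 202.2, 716.6, 276.0 and 455.0 CPM (mean 400.5 CPM; 42.57 ± 21.25 CPM per kb SD, n = 5). No dorsal or ventral library reached the lowest axon library. Ordered by the mean, the groups ran from axon mutant through axon control, dorsal control, ventral control and dorsal mutant to ventral mutant. Each pair of neighbours in that order overlapped, except axon control and dorsal control.

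The axon control level chose the set, so the control regions are given as a description with no test. Within each control embryo, the axon library held 1.868 to 7.494 times the Ccnd2 of the dorsal library and 2.416 to 5.356 times that of the ventral library. The stated choice named the control level alone. Earlier results of these data were known when it was made, so the mutant comparisons are not shown to be independent of it. In the mutant embryos the axon library held 2.51 to 6.098 times the dorsal level and 4.63 to 12.48 times the ventral level. It was higher in 5 of 5 embryos against either region.

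In the mutants the Ccnd2 difference passed the test in both comparisons. Ccnd2 was lower in the dorsal than in the axon region by a log2 fold change of -2.50 ± 0.21 (SE; edgeR quasi-likelihood test, adjusted p = 1.45e-05). It was lower in the ventral than in the axon region by -2.98 ± 0.32 (SE; edgeR, adjusted p = 5.23e-04). With the embryo as a block the adjusted p was 4.83e-03 and 1.51e-03. Over all alternatives it ranged from 2.48e-09 to 4.83e-03 and from 6.11e-07 to 0.0242. The median log2 difference of all genes was not at 0: it was 0.333 between dorsal and axon mutants and 0.375 between ventral and axon mutants with the trimmed mean (TMM) scaling, and 0.515 and 0.562 with total counts alone, so that Ccnd2 stood opposite to the typical gene.

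A call here means an adjusted p under 0.05 and a log2 fold change past 0.58 in size. Among mutants, Ccnd2 was the 1 member of 10 called between the dorsal and axon regions, where 0.545% of 15780 genes were called, and the 1 of 10 between the ventral and axon regions, where 0.443% of 15804 were. At an unadjusted p under 0.05 it was also the 1 of 10, while 23.5% and 21.8% of all genes passed that threshold. DESeq2 also called 1 of 10 members in each comparison, where it called 12.7% and 10.6% of all genes and gave 18.8% and 17.4% an unadjusted p under 0.05. The Ccnd2 groups did not overlap in either comparison, which held for 1.06% of all genes in the first and 0.842% in the second (genes lower than in axon). By p, Ccnd2 had rank 3 of all genes between dorsal and axon mutants and rank 1 among the 61 genes called lower dorsally. Between ventral and axon mutants it had rank 4 of all genes and of the 66 called lower ventrally.

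**Figure D2:**
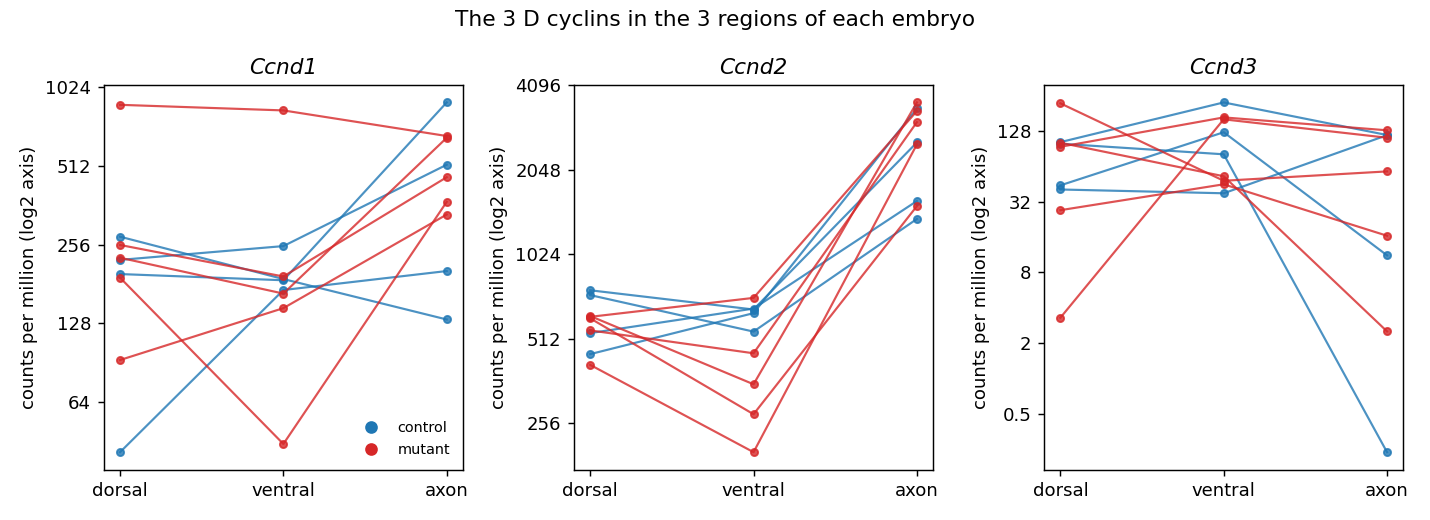
Ccnd1, Ccnd2 and Ccnd3 in the dorsal, ventral and axon libraries of each embryo, in counts-per-million on a log2 axis, with 1 line per embryo (blue control, red mutant). Every Ccnd2 line rises to the axon region, most Ccnd1 lines do, and the Ccnd3 lines cross.

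Markers of other cell types moved with the region. The summed level of 9 neuron and axon markers was 1323 to 2169 CPM in axon controls and 1165 to 2778 in axon mutants. It was 4.171 to 401.8 in dorsal mutants and 151.4 to 302.5 in ventral mutants. In axon mutants the sum came mainly from Nefm, a neurofilament subunit (mean 1290 ± 375.4 CPM SD, n = 5, against 39.07 dorsally and 125.9 ventrally), and Sncg, a synuclein of retinal ganglion cells (mean 343.3 ± 220.6 SD, n = 5, against 11.59 and 22.76). Other markers of the list went the other way: of the 8 that could be tested, 3 were higher dorsally and 2 ventrally than in axon mutants. Tubb3, a neuronal tubulin, was at most 0.1331 CPM in axon mutants and averaged 67.1 CPM in dorsal mutants. Pou4f2, a transcription factor of retinal ganglion cells, was listed at 0 in all libraries outside the ventral mutants, so it set no axon library apart from a dorsal one. In controls the ranges reached further, 24.43 to 1322 CPM dorsally and 116.6 to 1518 ventrally. Control embryo 2 had these high values, 1322 CPM dorsally and 1518 ventrally, and its Ccnd2 was at 537.0 and 656.4 CPM in the same libraries. Axon mutant 1, with the lowest neuron marker sum of the axon libraries at 1165 CPM, had the highest Ccnd2 of all libraries at 3560 CPM.

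Mesenchyme markers were also higher in axon than in the other mutant regions, 628 to 2265 CPM for 10 genes against 55.56 to 372.5 dorsally and 53.86 to 180.8 ventrally. In dorsal controls they summed to 1159 to 10185 CPM, and Ccnd2 there was at most 762.7 CPM. Optic stalk and astrocyte progenitor markers (8 genes) summed to 1045 to 2154 CPM in axon mutants and to 1356 to 2291 in ventral mutants, which overlapped, but to 376.2 to 713.6 in dorsal mutants, below all axon mutants. Of these 8 genes 2 were called between dorsal and axon mutants, where 0.545% of all genes were called. The 8 erythroid (red blood cell) markers were all fitted lower dorsally (median log2 -1.95) and ventrally (-4.00) than in axon mutants, where they summed to 608.5 to 33049 CPM, the highest in axon mutant 3. Of the 8 endothelial (vessel) markers 7 were fitted lower dorsally (median -0.814) and all 8 ventrally (-7.22). Pigment cell markers went the opposite way, with all 7 tested higher dorsally (median 6.31) and all 6 tested higher ventrally (2.47) than in axon mutants. Of the 7 pigment markers tested dorsally 2 were called. Between ventral and axon mutants 1 of the 8 neuron and axon markers tested was called, where 0.443% of all genes were. Mitochondrial transcripts took 10.2% ± 2.04 of the counts in axon mutants (SD, n = 5) against 5.81% ± 1.25 dorsally and 5.11% ± 0.57 ventrally, and axon mutants had fewer genes detected (9225 to 11358, against 12396 to 15177 dorsally). The part of these marker, mitochondrial and detection differences in the Ccnd2 result was not tested.

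**Figure D3:**
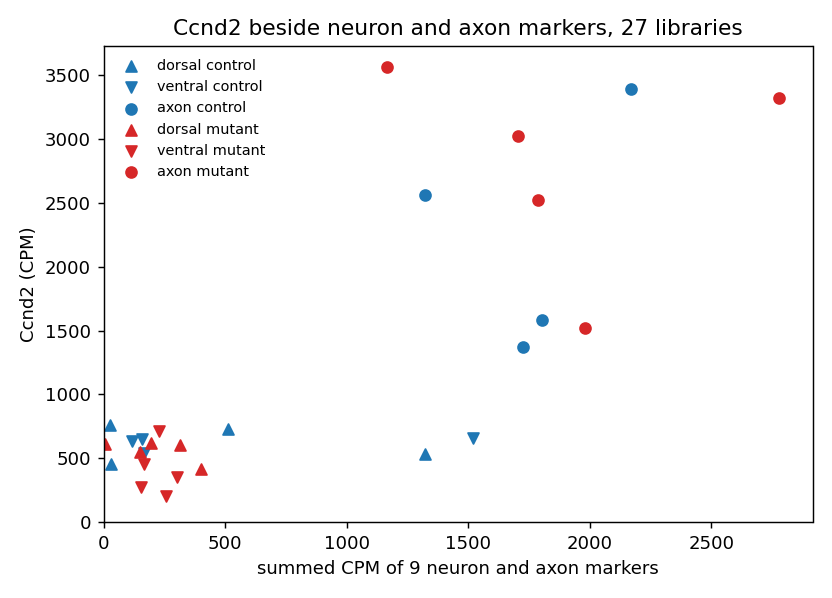
Ccnd2 in counts-per-million against the summed counts-per-million of 9 neuron and axon markers, with 1 point per library (circles axon, upward triangles dorsal, downward triangles ventral; blue control, red mutant). The dorsal and ventral libraries of control embryo 2 reach marker sums of 1322 and 1518 CPM with Ccnd2 at 537.0 and 656.4 CPM, below all axon libraries.

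Ccnd1, which encodes cyclin D1, varied widely between embryos. Axon controls held 894.6, 132.4, 202.8 and 517.0 CPM, ventral controls 187.0, 189.0, 171.6 and 252.6, and dorsal controls 197.5, 274.4, 41.18 and 223.7. Axon mutants held 333.5, 665.6, 463.2, 372.8 and 655.2 CPM, ventral mutants 146.3, 833.8, 193.3, 44.26 and 166.3, and dorsal mutants 92.67, 875.9, 255.1, 191.3 and 228.0. Embryo 2 of the mutants was the highest of its group in all 3 regions, and the regions overlapped in both genotypes.

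The axon library held more Ccnd1 than the dorsal library of the same embryo in 3 of 4 controls and 4 of 5 mutants, and more than the ventral library in as many. In controls Ccnd1 had a log2 fold change of -1.48 ± 0.62 (SE) between dorsal and axon regions (edgeR, unadjusted p = 0.0329, adjusted p = 0.386). Between ventral and axon regions it was -1.33 ± 0.50 (SE; edgeR, unadjusted p = 0.0203, adjusted p = 0.453). Neither passed the adjustment over all genes, and 10.5% and 9.19% of all genes had an unadjusted p under 0.05 in these comparisons. Without axon control 1, the library at 894.6 CPM, the values were -0.757 and -0.661.

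Ccnd3, which encodes cyclin D3, was low and scattered. Its group means ran from 61.48 ± 64.56 CPM in axon controls (SD, n = 4) to 116.1 ± 79.0 in ventral controls (SD, n = 4), and single libraries from 0.2386 to 222.1 CPM. The 6 groups overlapped throughout.

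Taken per kb, the D cyclin pool summed to 336.4 ± 178.9 CPM per kb in axon controls (SD, n = 4) and 409.4 ± 94.54 in axon mutants (SD, n = 5), against 112.1 to 139.4 in the means of the other 4 groups. Ccnd2 made up 73.8% ± 9.35 of that pool in axon controls (SD, n = 4) and 71.7% ± 7.66 in axon mutants (SD, n = 5). Its share was 58.9% ± 14.4 in dorsal and 54.8% ± 5.78 in ventral controls (SD, n = 4 each). It was 49.8% ± 21.4 in dorsal and 47.2% ± 22.7 in ventral mutants (SD, n = 5 each). Ccnd2 was the largest of the 3 shares in 24 of 27 libraries and Ccnd1 in the other 3, dorsal control 2 and the dorsal and ventral libraries of mutant embryo 2. In that embryo Ccnd2 was 18.3% dorsally and 9.88% ventrally, the lowest shares measured, beside Ccnd1 at 77.3% and 81.4%. Shares rest on the same counts as the Ccnd2 level that chose the set and carry no test.

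**Figure D4:**
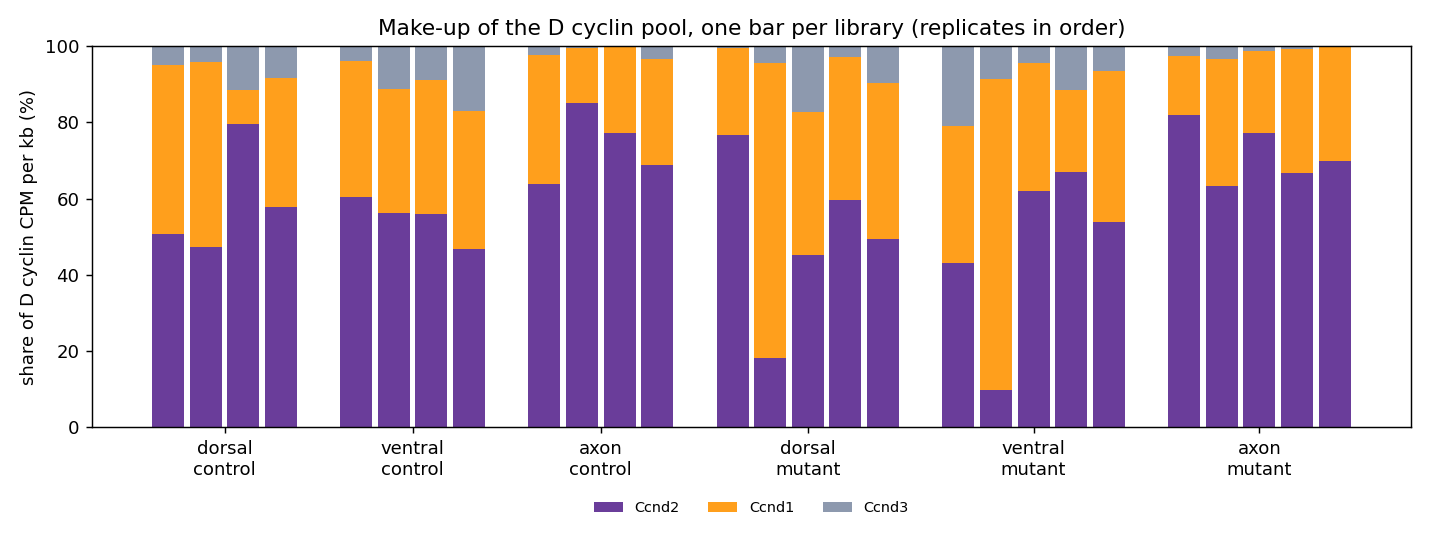
Share of Ccnd2 (purple), Ccnd1 (orange) and Ccnd3 (grey) in the summed D cyclin level per kb of exonic length, in percent, with 1 bar per library in replicate order. Ccnd2 averages 73.8% and 71.7% in the axon groups, and the second bar of the dorsal and of the ventral mutants falls to 18.3% and 9.88%.

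Cdk4, the kinase partner that was abundant in all libraries, ranged from 538.7 to 2324 CPM. Dorsal controls held 1379, 910.8, 798.0 and 1097 CPM and dorsal mutants 1290, 1555, 1209, 1556 and 1305 CPM. The dorsal means were 1046 ± 254.0 (SD, n = 4) and 1383 ± 161.6 (SD, n = 5), with overlap. The other 4 group means lay between 1102 and 1345 CPM. No region or genotype comparison gave Cdk4 an unadjusted p under 0.05.

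Cdk6, the second kinase, was lower and spread from 0 to 252.5 CPM. Dorsal mutants held 15.6, 40.84, 0, 112.1 and 47.46 CPM and axon mutants 83.21, 252.5, 27.81, 225.9 and 85.01 CPM. Dorsal controls held 126.2, 31.08, 5.782 and 86.07 CPM and axon controls 135.0, 96.46, 93.16 and 137.3 CPM. The dorsal library was below the axon library of the same embryo in 4 of 4 controls and in 5 of 5 mutants, a count that was looked up after the values were seen. The groups overlapped and the fits gave no unadjusted p under 0.05.

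Of the CDK inhibitors, Cdkn1c (p57) was the most abundant. Dorsal controls held 91.53, 201.7, 620.2 and 168.0 CPM (mean 270.4 ± 237.7 SD, n = 4) and ventral controls 47.94, 117.9, 97.6 and 95.18 CPM (mean 89.66 ± 29.62 SD, n = 4). The dorsal library was the higher in 4 of 4 control embryos, and the groups overlapped. The log2 fold change between them was 1.61 ± 0.58 (SE; edgeR, unadjusted p = 0.0163, adjusted p = 0.615), and it was 0.72 without dorsal control 3, the library at 620.2 CPM. That library also had the highest mesenchyme marker sum, 10185 CPM, where the other dorsal controls had 1159 to 3290 and ventral controls 55.45 to 1305 CPM. It stood apart in other markers as well: its erythroid markers summed to 24360 CPM against 727.6 to 2847 in the other dorsal controls, and its pigment markers to 39.53 CPM against 1321 to 4889. The part of these differences in the Cdkn1c level was not tested. In dorsal mutants, whose mesenchyme markers summed to 55.56 to 372.5 CPM, Cdkn1c was at 93.22, 63.07, 78.62, 129.8 and 132.5 CPM.

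Cdkn1b (p27) had group means of 11.05 to 29.85 CPM and Cdkn1a (p21) of 10.44 to 28.32 CPM. Cdkn1a was listed at 0 in 2 of 5 dorsal mutants, 2 of 5 ventral mutants, 1 of 5 axon mutants and 2 of 4 axon controls, and reached 91.52 CPM in ventral mutant 4. Both inhibitors overlapped between all groups, and neither had an unadjusted p under 0.05 in any comparison.

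The pocket proteins, the substrates of the cyclin D kinases, were at the low end. Rb1 had group means of 15.91 to 37.93 CPM and Rbl1 of 14.4 to 51.61 CPM, each with libraries at 0 beside libraries of up to 95.87 CPM (Rb1) and 205.1 CPM (Rbl1). Rbl1 in axon mutants was at 0, 0.1279, 52.84, 205.1 and 0 CPM. No comparison gave either gene an unadjusted p under 0.05.

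Loss of Smarcc1 is the question of the study, and between genotypes no member was called in any region. The deleted gene was not called either. Smarcc1 had log2 fold changes of -1.66 ± 0.99 (SE) dorsally, -2.37 ± 0.53 ventrally and -2.46 ± 1.23 in axons. By edgeR its unadjusted p was 0.121, 7.81e-04 and 0.0671, and its adjusted p was 0.953, 0.999 and 0.88. The lack of a call therefore does not show that a member was unchanged. In the dorsal region 0 of 10 members were called by edgeR, where 0.0124% of 16145 genes were. In the ventral region it was 0 of 10, where 0% of 16139 genes were called, and in the axon region 0 of 9, where 0% of 14977 were (Ccnd2 was left out there, since its axon control level chose the set). At an unadjusted p under 0.05 the counts were again 0 of 10, 0 of 10 and 0 of 9, where 5.35%, 3.19% and 3.55% of all genes passed. DESeq2 called none either and gave none an unadjusted p under 0.05, a threshold that 13.1%, 10% and 17.1% of all genes passed by that tool. No member had groups without overlap between genotypes, which held for 2.92%, 1.23% and 1.28% of all genes. The member with the smallest p was Cdk4 dorsally (edgeR, unadjusted p = 0.0658), Ccnd2 ventrally (edgeR, unadjusted p = 0.072) and Rbl1 in axons (edgeR, unadjusted p = 0.362).

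**Figure D5:**
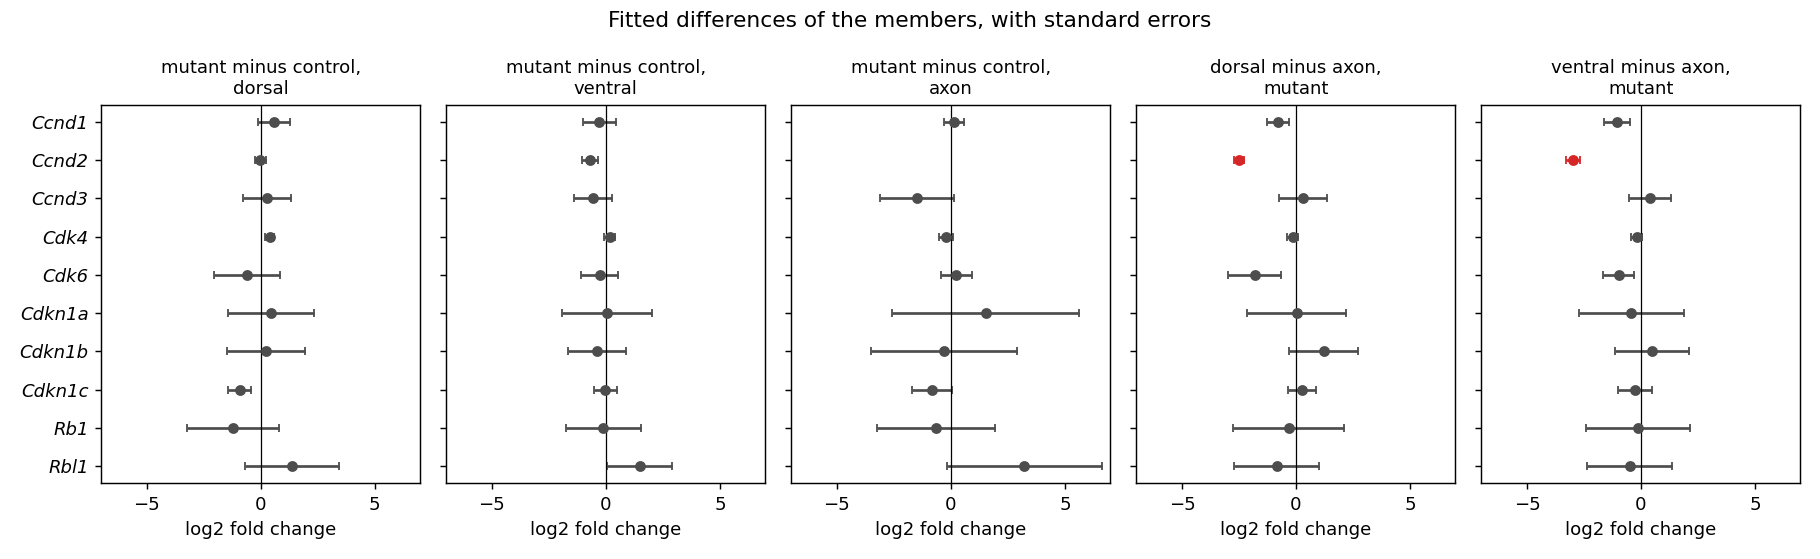
Fitted log2 fold change of each gene with its standard error for the 3 comparisons between genotypes and for the dorsal and ventral regions against the axon region in mutants. Ccnd2 in the 2 region comparisons (red) is the only call, and its axon comparison between genotypes is not drawn because that level chose the set.

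Among the region comparisons, no member was called between dorsal and ventral controls, where 0% of 16118 genes met the call rule and 6.74% fell under an unadjusted p of 0.05. Cdkn1c was the 1 of 10 members at that unadjusted threshold by edgeR. By DESeq2, 1 of 10 members passed it and 0 were called, where 8.68% and 1.85% of all genes did so. In mutants the dorsal and ventral regions gave 0 of 10 by either measure and by edgeR and DESeq2 alike, where edgeR called 0% of 16168 genes and gave 12.4% an unadjusted p under 0.05, and DESeq2 called 3.28% and gave 11.1% such a p. For controls against the axon region, 0 of 9 members other than Ccnd2 were called dorsally (0.0692% of 15899 genes) and 0 of 9 ventrally (0.0316% of 15839), and DESeq2 called none (4.6% and 3.29% of all genes) and gave none an unadjusted p under 0.05 (12.4% and 11%). Ccnd2 did not overlap between control regions, as was so for 1.5% of genes dorsally and 1.11% ventrally among those lower than in axon, and nothing is read from that count.

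Whether the genotype effect differed between regions was tested as an interaction over all 27 libraries. Between dorsal and ventral regions 0 of 10 members were called, where 0.00612% of 16330 genes were and 7.39% fell below 0.05 without adjustment. For dorsal against axon regions it was 0 of 9 (0.0245% called, 11.7% unadjusted) and for ventral against axon regions 0 of 9 (0.00612% called, 10.4% unadjusted). None of these members had an unadjusted p under 0.05 by edgeR or DESeq2. DESeq2 called 3.92%, 10.1% and 8.98% of all genes in these 3 interactions and gave 8.38%, 17.2% and 15% an unadjusted p under 0.05.

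The rest of the G1 machinery was read from lists by role. Among 10 other cyclins, kinases and activators of G1 (Ccne1, Cdk2, Cdk7 and others), 9 had a log2 fold change above 0 between dorsal mutants and controls. Of all genes tested 48.6% did. The median of the 10 was 0.652 beside -0.0421 over all genes tested. They were measured in the same libraries, so they are not 10 separate observations. Their summed level overlapped, at 1001 to 1800 CPM in dorsal controls and 1717 to 1991 CPM in dorsal mutants. Ventrally 5 of the 10 were above 0 and in axons 6, as were 46.8% and 42.3% of all genes. In the dorsal region, of 11 further pocket protein, E2F and DP genes 7 were above 0 (median 0.0641), and of the 3 Myc genes 2 were. Of the 4 INK4 inhibitors, which block CDK4 and CDK6 directly, Cdkn2a and Cdkn2b had too few counts for a test and the other 2 (Cdkn2c and Cdkn2d) were below 0. Of these 28 genes edgeR called 0 in each of the 3 genotype comparisons and gave 2, 0 and 0 an unadjusted p under 0.05 in the dorsal, ventral and axon regions. DESeq2, which called 3.86% of 13776 genes dorsally, 2.45% of 13946 ventrally and 10.7% of 11589 in axons, called 1 of these genes dorsally (E2f2), 0 ventrally and 1 in axons (Mycn). In axons Mycn was fitted as lower in mutants although its mean was 9.133 CPM in controls and 12.08 CPM in mutants.

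Genes of S phase and mitosis, which act after the E2F step, were read from a list of 16, of which 15 could be tested (Rrm2 had too few counts). Between dorsal mutants and controls 14 of 15 had a log2 fold change above 0, as did 48.6% of all genes tested. Their median was 0.777 beside -0.0421 over all genes. The 15 genes were measured in the same libraries, so they are not 15 separate observations. By edgeR 4 of them had an unadjusted p under 0.05, as 5.35% of all genes did, and 0 an adjusted p under 0.05. DESeq2 called 1, Birc5, where it called 3.86% of all genes. The summed level of the list was 2008 CPM in dorsal control 2 and 2039 in dorsal control 3, but 4165 and 4215 in dorsal controls 1 and 4, inside the range of the dorsal mutants (4106 to 5613 CPM). The median was 0.486 without dorsal control 2 and 0.446 without dorsal control 3, with 14 of 15 genes above 0 each time. The number at an unadjusted p under 0.05 was 1 without dorsal mutant 5 and 7 without dorsal control 4. Birc5, which encodes the mitotic protein survivin, had the smallest p: it was at 193.7 to 373.3 CPM in dorsal controls and at 475.5 to 616.8 CPM in dorsal mutants, without overlap. Its log2 fold change was 0.88 ± 0.24 (SE; edgeR, unadjusted p = 3.61e-03, adjusted p = 0.865; DESeq2, adjusted p = 0.0288). E2f2, an activating E2F, had no count in the 4 dorsal controls and 0.4827 to 40.72 CPM in dorsal mutants. The mutant mean of 21.9 CPM was 127 times a floor of 3 counts per control library (mean 0.172 CPM). That floor covers counting error only, so the ratio is no lower bound on the difference in expression. For E2f2 the edgeR adjusted p was 0.913 and the DESeq2 adjusted p was 3.27e-06. Other markers differed between the same groups: all 10 mesenchyme markers (median log2 -3.99) and 7 of 8 optic stalk markers (-1.08) were fitted lower in the dorsal mutants, and all 7 pigment markers tested were fitted higher (2.07). Their part in the list's shift was not tested.

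In the ventral region 9 of 15 S phase and mitosis genes were above 0 (median 0.122, all genes -0.083). Cdk1, the mitotic kinase, and Ccnb1, its cyclin, had the smallest p. Cdk1 was at 141.9 to 522.8 CPM in controls and 483.7 to 815.8 CPM in mutants (log2 fold change 0.97 ± 0.32 SE; edgeR, unadjusted p = 0.0108, adjusted p = 0.999). Ccnb1 was at 182.7 to 418.8 CPM in controls and 412.3 to 694.7 CPM in mutants (log2 fold change 0.63 ± 0.28 SE; edgeR, unadjusted p = 0.0429, adjusted p = 0.999). In the axon region 9 of 15 were above 0 (median 0.108, all genes -0.292), with Top2a at 0.55 ± 0.24 (SE; edgeR, unadjusted p = 0.0395, adjusted p = 0.88) and Mcm3 at -1.03 ± 0.47 (SE; edgeR, unadjusted p = 0.0461, adjusted p = 0.88). No gene of the list passed the adjusted test in these regions by edgeR or DESeq2.

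The genes whose pattern was most like that of Ccnd2 were looked up among 7296 genes with a mean of at least 20 CPM, by Spearman correlation of CPM over the 27 libraries. These libraries share embryos and regions, so the values are descriptions. The 5 most alike were Celf1 (0.80), an RNA-binding protein, Nes (0.77), the neural progenitor filament nestin, Tmsb10 (0.77), an actin-binding thymosin, mt-Co1 (0.76), a mitochondrial respiratory gene, and Igfbp5 (0.75), an IGF-binding protein. Nes had means of 595.8 CPM in axon controls and 679.2 in axon mutants against 42.7 to 127.2 in the other groups. With Pearson correlation of log2(CPM + 1) 2 of these 5, Nes and Tmsb10, were again in the top 5. Among the other members Ccnd1 correlated with Ccnd2 at 0.34 and Cdk4 at -0.079.

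For Ccnd1 the 5 most alike were Crabp1 (0.70), a retinoic acid binding protein, R3hdm4 (0.67), the ribosomal genes Rps27a (0.66) and Rplp2 (0.64), and Pmf1 (0.64). With Pearson correlation of log2(CPM + 1) 2 of these 5, Crabp1 and Pmf1, were again in the top 5. Crabp1 was at 67.51 to 115.9 CPM in axon controls and at most 31.7 CPM in dorsal and ventral controls. Like Ccnd1, it had a single high library in each of the dorsal and ventral mutant groups, at 341.1 and 280.9 CPM beside medians of 0 and 0.5206.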

How the data were processed

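Raw gene counts were deposited by the authors as a single table of 27 libraries. Per the labels and the study's methods, full-length cDNA was amplified by PCR without molecular identifiers, sequenced as single-end reads and aligned to mm10 with STAR, and HTSeq counted reads per gene; versions and the strand setting were not given in the sources used here. Columns were joined to samples by title. Gene identifiers were matched, without version, to GENCODE vM21 on the same build (55227 of 55487 matched, and the other 260 held 0.00287% of counts). CPM was the count over the library total; only CPM per kb of merged exons was compared between genes.

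The members, gene lists and tests were chosen with earlier results of these data known. The 16330 genes with over 10 counts in 3 libraries or more were tested with edgeR 4.0.16 in R 4.3.3 (TMM scaling, robust quasi-likelihood F-test, Benjamini-Hochberg adjustment over all genes tested), after a check on simulated data. Genotypes were compared within a region (9 libraries) with batch as a covariate, regions within controls (8 libraries) or mutants (10) without covariate, and interactions over all 27 with batch. Genes named outside the 10 members were the target, the 2 list genes per direction and genotype comparison with the smallest unadjusted p under 0.05, the 5 most correlated with Ccnd2 or Ccnd1, defining markers, and overlapping neighbours; calls of DESeq2 and marker genes given as examples were added after values were seen. The labels do not name embryos: the same number across regions was read as the same embryo, from the study's embryo counts. Deviations from group means correlated at -0.0195 to 0.115 between libraries matched in this way. Medians for libraries of different embryos were -0.0401 to -0.00114. Alternatives used DESeq2 1.42.0, other scalings, filters and covariates, and the embryo as a block. The libraries of a group came from separate embryos, so p-values of the genotype comparisons measure the spread between libraries of different embryos. The main region and interaction fits had no embryo term. Their p-values measure the spread between libraries, of which several came from the same embryo. Counting limits such as the floor of 3 counts cover counting error only.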

Additional observations from a re-analysis of the deposited data

Results flagged for a closer look

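Of the 60 groups of member values examined for a single distant library, 1 stood out, while chance gives about 1 in 20. Cdkn1b, which encodes the CDK inhibitor p27, was at 3.257 CPM in ventral control 3 and at 27.75 to 32.06 CPM in the other 3 ventral controls. The gap to the nearest library was 0.932 of the group's whole range.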

How the results depend on the processing

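The alternatives were RLE scaling, total counts alone, no count filter, DESeq2, the newer edgeR method and all 27 libraries in a single fit. Others were no batch term, each batch alone, the replicate block and leaving out each library. The interactions were run only with DESeq2 and the replicate block. Under every alternative run for it, each of the 12 comparisons kept its count of members called. The count was 1 of 10 (Ccnd2) for dorsal against axon mutants and for ventral against axon mutants, and 0 in the others. Ccnd2 was left out of the other comparisons with axon libraries. Between genotypes the main edgeR fits called 2, 0 and 0 of all genes, so a count of 0 there says little. For Ccnd2 the replicate block gave log2 fold changes of -2.46 and -3.06, and leaving out 1 library gave -2.67 to -2.38 and -3.31 to -2.79. The block changed no other call. The comparisons of genotypes by batch A alone rest on 1 control embryo, assumed to vary like the mutants.

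Log2 fold changes that missed the adjusted threshold kept their direction: Ccnd1 ranged from -1.73 to -0.757 (dorsal against axon controls) and from -1.64 to -0.661 (ventral against axon controls), and Cdkn1c from 0.72 to 1.89 (dorsal against ventral controls). The mean Ccnd2 level in axon controls, 2226 CPM, was 2449 CPM on TMM effective library sizes and 1839 to 2512 CPM with 1 library left out. Without division by exonic length the Ccnd2 share of the D cyclins was 84.0% in axon controls, 82.6% in axon mutants and 66.9% in ventral controls. Over all genes the number called depended on the tool: between genotypes edgeR called 2, 0 and 0 genes in the dorsal, ventral and axon regions and DESeq2 532, 342 and 1238, and for dorsal and ventral against axon mutants edgeR called 86 and 70 and DESeq2 1586 and 1352. The cause was not tested. Counts of 3 equalled at most 0.275 CPM, so the libraries at 0 for Cdkn1a, Rb1 and Rbl1 lie beside others far above that floor.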

Other observations

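The dorsal and ventral libraries of a single mutant embryo had an unusual D cyclin make-up, a pattern picked after the values were seen. In mutant embryo 2, Ccnd1 was the highest of the 5 mutants in each region, at 875.9 CPM dorsally, 833.8 ventrally and 665.6 in axons, while Ccnd2 was the lowest of the 5 dorsally (413.7 CPM) and ventrally (202.2 CPM). Its Cdk4 was at 1555, 1731 and 2324 CPM, and Crabp1 at 341.1 CPM dorsally and 280.9 ventrally. The 8 retinal progenitor markers (among them Rax, Six6 and Lhx2) summed to 1474 CPM in its dorsal and 1113 CPM in its ventral library, where the other mutants had 449.1 to 685 and 450.5 to 618 CPM. In its axon library they summed to 263.4 CPM, the lowest of the axon mutants. There Ccnd1 and Ccnd2 made up 33.3% and 63.2% of the D cyclin pool per kb, beside 33.7% and 63.9% in axon control 1. The embryo belongs to batch A. No test was run on a single embryo.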
